A study of Mus musculus with 62 samples.

Results

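Cck, Slc30a3, Slc17a7 and Slc17a6 were described in BRB-seq libraries of mouse brain, from the nucleus accumbens (NAc) and from the prefrontal cortex (PFC). They are 4 of the 11121 genes in the count table, found by their Ensembl identifiers, and all 4 passed the filter on low counts that 11025 genes passed over all libraries. Cck and Slc30a3 had been picked from the contrast of stressed and unstressed NAc libraries, so their values in that contrast are given as a description with no test. All animals were male wild-type C57BL/6j mice of 15 weeks, either exposed to multimodal chronic restraint stress (mCRS) or left unstressed (CTR). There were 15 PFC CTR, 15 PFC mCRS, 16 NAc CTR and 16 NAc mCRS libraries. The PFC and the NAc were taken from the same mice, but which libraries share a mouse is not given in the sources used here, so libraries were treated as independent. BRB-seq counts reads near the 3′ end of transcripts with a barcode for each sample, so levels are compared here between libraries and never between genes.

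The 4 genes mark excitatory neurons in different ways. Slc17a7 and Slc17a6 encode the vesicular glutamate transporters VGLUT1 and VGLUT2, which load glutamate into synaptic vesicles. VGLUT1 is the form of cortical and hippocampal neurons, and VGLUT2 that of the thalamus, hypothalamus and other subcortical sites. Slc30a3 encodes ZnT3, which loads zinc into the vesicles of a subset of glutamatergic terminals, many of them cortical in origin. Cck encodes the precursor of cholecystokinin, a neuropeptide made by cortical excitatory neurons and by a class of GABAergic interneurons. The NAc belongs to the ventral striatum: its projection neurons are GABAergic, and its glutamatergic input comes from cell bodies that lie elsewhere.

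In the GENCODE annotation of GRCm38, Cck (ENSMUSG00000032532) lies on the minus strand of chromosome 9 at chr9:121489824-121495694, and its 87696 counts came from all 62 libraries. Slc30a3 (ENSMUSG00000029151) lies on the minus strand of chromosome 5 at chr5:31086106-31108237, with 10100 counts in 54 libraries. Slc17a7 (ENSMUSG00000070570) lies on the plus strand of chromosome 7 at chr7:45163949-45176142, with 47634 counts in 62 libraries. Slc17a6 (ENSMUSG00000030500) lies on the same strand of chromosome 7 at chr7:51622006-51671119, with 5083 counts in 53 libraries. All 4 are protein-coding.

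The promoters of Cck, Slc30a3 and Slc17a7 are shown because these genes shared a high level in the PFC and a low level in the NAc. Each sequence holds the 250 bases before a RefSeq start on the gene's own strand, in GRCm38.p6, and capitals mark the motif matches described after them.
Cck promoter (chr9:121495695-121495944, minus strand): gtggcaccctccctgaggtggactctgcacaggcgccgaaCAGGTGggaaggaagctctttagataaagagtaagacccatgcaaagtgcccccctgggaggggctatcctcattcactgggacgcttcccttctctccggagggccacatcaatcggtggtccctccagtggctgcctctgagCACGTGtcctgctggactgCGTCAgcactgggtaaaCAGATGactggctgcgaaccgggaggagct
Slc30a3 promoter (chr5:31108245-31108494, minus strand): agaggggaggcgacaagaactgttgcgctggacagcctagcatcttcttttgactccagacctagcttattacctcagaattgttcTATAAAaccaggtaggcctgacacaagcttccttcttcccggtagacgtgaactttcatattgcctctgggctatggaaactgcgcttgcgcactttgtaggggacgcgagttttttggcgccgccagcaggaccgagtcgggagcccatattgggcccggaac
Slc17a7 promoter (chr7:45163671-45163920, plus strand): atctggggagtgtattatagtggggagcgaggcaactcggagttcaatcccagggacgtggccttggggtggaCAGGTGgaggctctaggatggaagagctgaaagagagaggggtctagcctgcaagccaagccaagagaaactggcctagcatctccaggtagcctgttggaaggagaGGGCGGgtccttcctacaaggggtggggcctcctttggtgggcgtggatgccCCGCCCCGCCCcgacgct
The motifs searched on both strands were the cyclic AMP response element TGACGTCA, its part TGACG, the AP-1 site TGANTCA, the E-box CANNTG, the GC box GGGCGG and the TATA box TATAAA, and any match to the first of these also matches the second. In the Cck window there were 3 E-boxes and 1 match to the TGACG part of the cyclic AMP response element, on the opposite strand at 47 to 43 bases before the start. RefSeq gives Slc30a3 a second start, whose window (chr5:31093528-31093777) held 2 GC boxes and no TATAAA match. The window shown, which lies near the GENCODE start, held 1 TATAAA match, with its first base 164 bases before the start, and the Slc17a7 window held 1 E-box and 3 GC boxes, with 1 base shared by the last 2. Among 32851 such windows of RefSeq genes, 17.8% held TGACG, 66.2% an E-box, 32.7% a GC box and 12.4% TATAAA. The full element TGACGTCA, held by 1.55% of windows, and the AP-1 site, held by 6.75%, had no match in the 3 windows shown.

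Libraries held 945286 to 4857359 counts, and 69.7% to 97.4% of the listed genes had a count. With 1 exception, the libraries carried the striatal markers that their labels call for. The mean level of the 17 striatal projection neuron genes, on the log2 scale of CPM, counts scaled to a common library total (log2 CPM), was 6.93 to 8.54 in NAc mCRS libraries and 7.42 to 8.85 in NAc CTR libraries other than number 7, against 3.74 to 6.18 in the PFC. NAc CTR library 7 stood apart at 4.58, within the range of the PFC, and fits are therefore also given without it. Its cortical markers were not in that range. The mean log2 CPM of 21 cortical excitatory neuron genes was 2.93 there, against 5.33 to 6.58 in PFC CTR and 4.59 to 6.63 in PFC mCRS libraries. It held 42.9 CPM of Cck and 24.2 CPM of Slc17a7. In NAc mCRS library 10 the summed level of the choroid plexus list was 24029 CPM, against a median of 222 CPM in its group. Low counts of a gene in these bulk samples can come from fewer cells of a type or from less RNA per cell, which cannot be told apart.

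Cck was abundant in every PFC library and far lower in the NAc. PFC CTR libraries held 818 to 1574 CPM with a median of 1089 CPM, and PFC mCRS libraries 859 to 1828 CPM with a median of 1281 CPM. NAc CTR libraries held 3.87 to 129 CPM with a median of 62.4 CPM, and NAc mCRS libraries 9.23 to 351 CPM with a median of 131 CPM. Every PFC library lay above every NAc library of the same treatment. Fitted with edgeR over all 62 libraries, Cck was higher in the PFC by 4.23 on the log2 scale in CTR mice (SE 0.27, FDR 9.2e-24), a fold of 18.7, and by 3.23 in mCRS mice (SE 0.26, FDR 5.8e-18), a fold of 9.4.

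Slc17a7 followed the same division between regions. Its levels were 423 to 1036 CPM in PFC CTR libraries (median 640 CPM) and 245 to 962 CPM in PFC mCRS libraries (median 582 CPM). In the NAc they were 3.15 to 150 CPM in CTR libraries (median 76.6 CPM) and 6.72 to 214 CPM in mCRS libraries (median 62.7 CPM). The regions did not overlap within either treatment. The PFC exceeded the NAc by 3.17 on the log2 scale in CTR mice (SE 0.30, FDR 2.8e-14, a fold of 9.0) and by 2.86 in mCRS mice (SE 0.30, FDR 1.6e-12, a fold of 7.26).

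Slc30a3 was lower in the NAc too, where it was at 0 counts in 8 of 32 libraries. PFC CTR libraries ranged from 25.7 to 279 CPM (median 125 CPM) and PFC mCRS libraries from 10.3 to 183 CPM (median 105 CPM). NAc CTR libraries ranged from 0 to 22.9 CPM (median 2.25 CPM), and 5 of 16 had no count. NAc mCRS libraries ranged from 0 to 112 CPM (median 15.0 CPM), and 3 of 16 had no count. The regions did not overlap in CTR mice, whereas in mCRS mice 7 of 15 PFC libraries lay above every NAc library. The PFC exceeded the NAc by 4.43 on the log2 scale in CTR mice (SE 0.66, FDR 3.1e-07) and by 1.99 in mCRS mice (SE 0.60, FDR 0.024). In the 8 NAc libraries with no count, the limit that a count of 0 allows (3 counts) was a level of 0.615 to 2.9 CPM, for counting error only.

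Slc17a6 ran the opposite way, with wide spread in both regions. PFC CTR libraries held 0 to 74.2 CPM (median 2.11 CPM) and PFC mCRS libraries 0 to 29.4 CPM (median 6.75 CPM). NAc CTR libraries held 3.81 to 190 CPM (median 31.5 CPM), the highest being library 7, and NAc mCRS libraries held 0 to 121 CPM (median 51.4 CPM). In mCRS mice 12 of 16 NAc libraries lay above every PFC library, and in CTR mice 3 of 16 did. The log2 fold change of the PFC over the NAc was -2.42 in mCRS mice (SE 0.80, FDR 0.0499), at the edge of the threshold, and -2.24 in CTR mice (SE 0.79, FDR 0.0892), which missed it. The mCRS call was lost in 42 of the 62 fits that left out 1 library. Without NAc CTR library 7 the CTR value was -1.89 (FDR 0.221), and without PFC CTR library 5 it was -3.20 (FDR 0.00649), whereas DESeq2 gave -2.33 (FDR 0.0191).

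**Figure D1:**
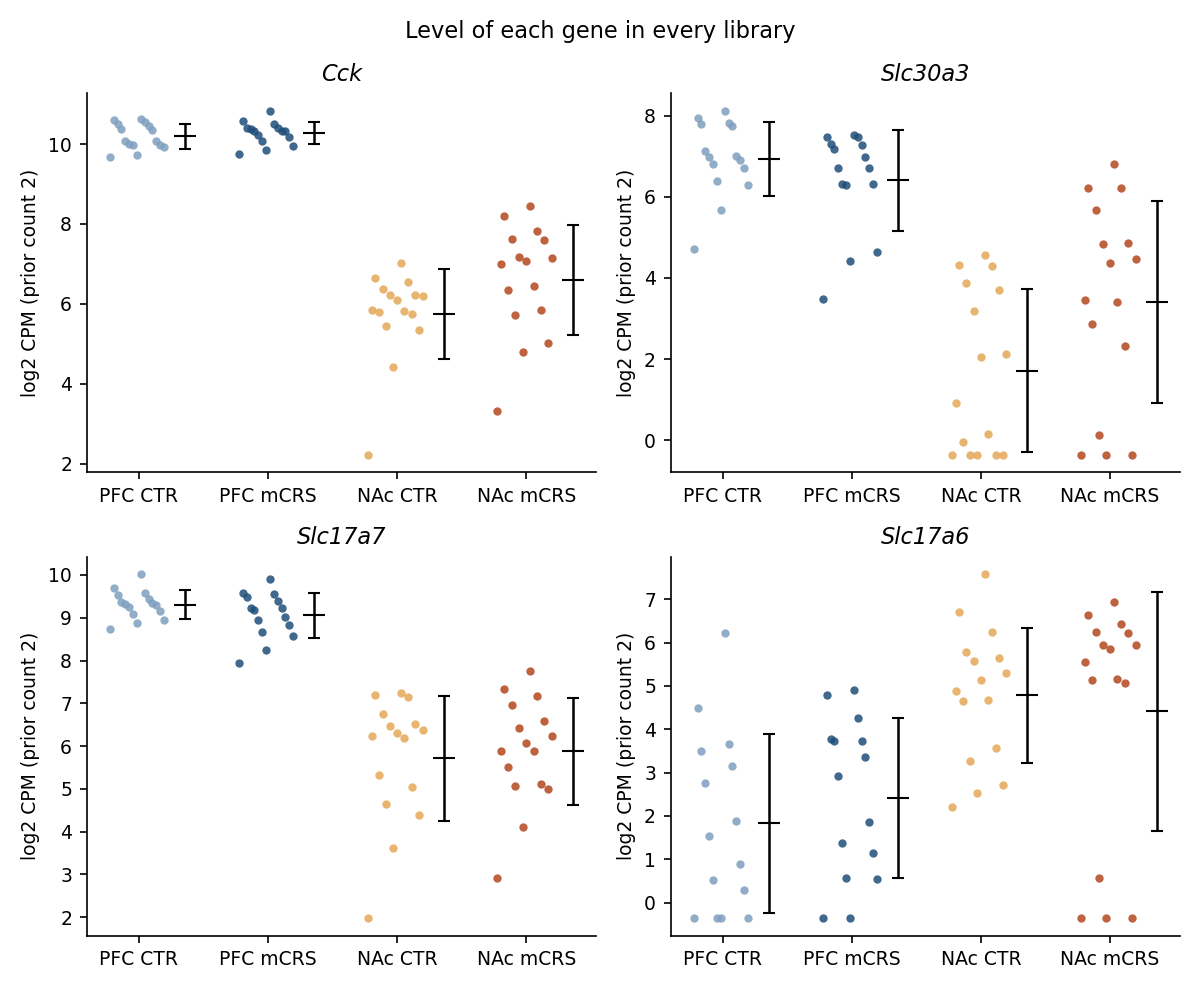
Level of each gene in every library, in log2 CPM with a prior count of 2, by region and treatment (15 PFC CTR, 15 PFC mCRS, 16 NAc CTR and 16 NAc mCRS libraries). Points are libraries, spread sideways for visibility, and the black marks show the mean ± SD. Cck and Slc17a7 libraries of the PFC lie above all those of the NAc, Slc30a3 falls to 0 counts in 8 NAc libraries, and Slc17a6 is higher in most NAc libraries.

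Calls between regions were not common among all genes: 600 of 11025 genes (5.44%) differed at an FDR below 0.05 in CTR mice, 392 of them (3.56%) higher and 208 (1.89%) lower in the PFC, and 715 (6.49%) differed in mCRS mice, 426 (3.86%) higher in the PFC. Of the 4 genes, 3 were called higher in the PFC in both treatments, and Slc17a6 was called lower (a direction taken by 2.62% of genes) in mCRS mice only, a difference between treatments that was not tested. The NAc libraries of both region contrasts also served in choosing Cck and Slc30a3, so the region tests of these 2 genes are not independent of that choice. Leaving out NAc CTR library 7 gave log2 fold changes of 4.2 for Cck, 4.35 for Slc30a3 and 3.12 for Slc17a7 in CTR mice.

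The NAc level was next expressed as a share of the PFC level, beside other genes of cortical excitatory neurons. Since Cck and Slc30a3 were chosen for a lower level in NAc CTR than in NAc mCRS libraries, their shares are a description. The mean NAc level was 5.32% of the mean PFC level in CTR mice for Cck, 4.56% for Slc30a3 and 11.2% for Slc17a7. In mCRS mice these shares were 10.6%, 25.4% and 13.8%. The same share over 21 other genes of a cortical excitatory neuron list had a median of 21.3% in CTR mice and of 25.4% in mCRS mice. It ran in CTR mice from 1.09% for Dkkl1, a cortical neuron marker, to 163% for Tle4, a transcriptional corepressor of deep-layer neurons. In CTR mice 4 of the 21 genes had a lower share than Cck or than Slc30a3, and in mCRS mice 6 lay below Cck and 11 below Slc30a3. Taken singly, the NAc mCRS libraries had a median Slc30a3 share of 13.9%, and library 8 stood at 103%. For Slc17a6 the NAc level was 473% of that of the PFC in CTR mice and 537% in mCRS mice. Its PFC CTR mean was 9.30 CPM beside a median of 2.11 CPM, and library 5 held 38.1% of the counts of that group. Of the 21 list genes, 13 were called higher in the PFC and 0 lower in CTR mice, against 3.56% and 1.89% of all genes. Their median log2 fold change was 2.22, against -0.04 over all genes tested. Tbr1, a transcription factor of cortical glutamatergic neurons, was higher by 5.33 (SE 0.71, FDR 7.9e-09).

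**Figure D2:**
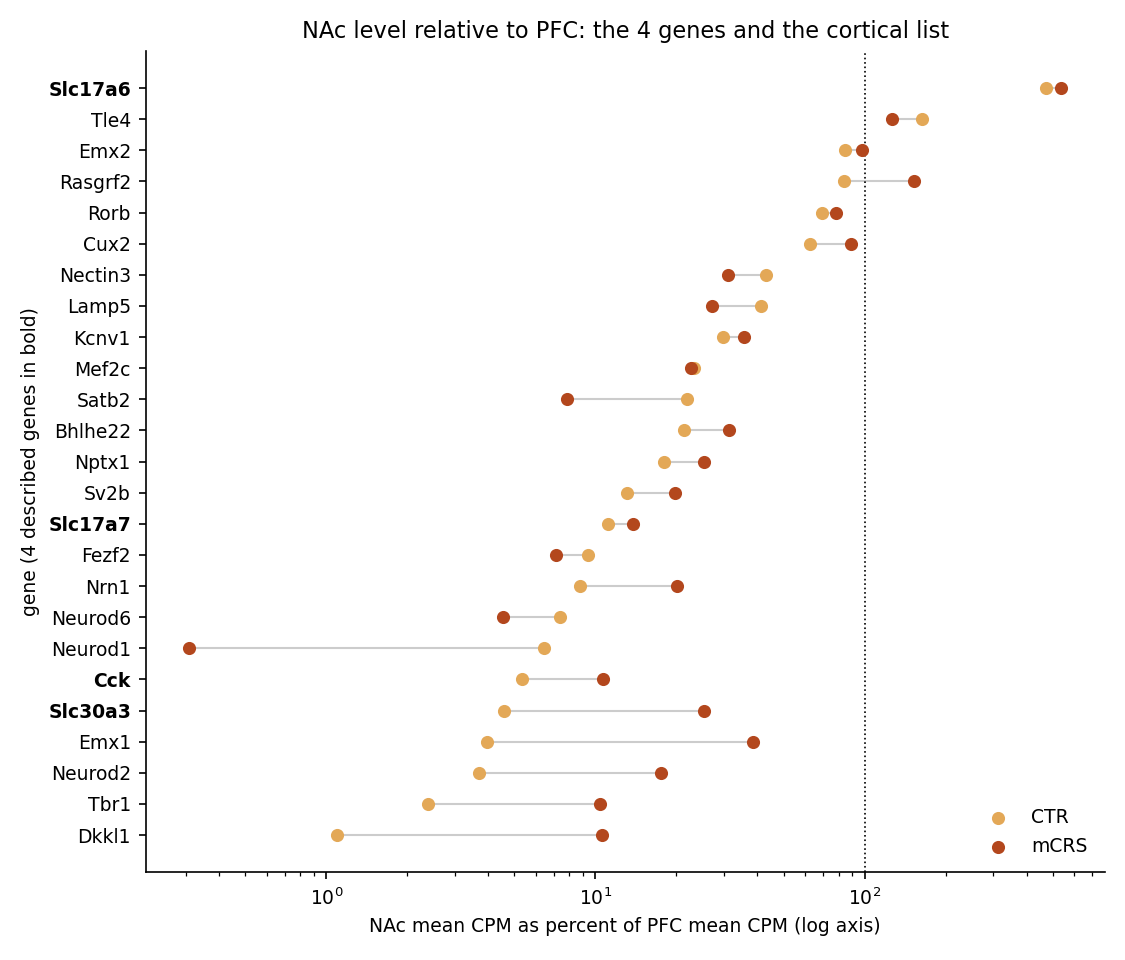
Mean CPM in the NAc as a percent of mean CPM in the PFC on a log axis, for the 4 described genes (bold) and 21 other genes of the cortical excitatory neuron list, with CTR and mCRS mice as separate points joined by a line. The dotted line marks an equal level in both regions. Cck and Slc30a3 lie at 5.32% and 4.56% in CTR mice and at 10.6% and 25.4% in mCRS mice, and Slc17a6 lies above 100% in both.

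In the PFC the stress contrast moved none of the 4 genes past a threshold. Cck changed by a log2 fold change of 0.08 (SE 0.12), Slc30a3 by -0.40 (SE 0.33), Slc17a7 by -0.20 (SE 0.16) and Slc17a6 by -0.01 (SE 0.93), each with an FDR of 1.0 in edgeR's test over 8916 genes. In these libraries 0% of genes passed an FDR of 0.05, 0 genes in edgeR and 0 in DESeq2. An unadjusted p below 0.05 was met by 3.5% (312 genes) in edgeR, none of them among the 4, and by 576 genes in DESeq2. The estimate for Cck was precise, whereas that for Slc17a6 rested on libraries of which 15 of 30 held under 10 counts, and its sign depended on the setting. Within libraries numbered 1 to 8 the mean log2 CPM of Slc30a3 differed by -1.19 between mCRS and CTR (SE 0.55), and within numbers 9 and above by 0.23 (SE 0.55).

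In the NAc, the contrast from which the genes were chosen, the values were as follows. Cck was higher after mCRS by 1.07 on the log2 scale (SE 0.34), a fold of 2.10, and Slc30a3 by 2.05 (SE 0.92), a fold of 4.15. Slc17a7 differed by 0.09 (SE 0.39) and Slc17a6 by 0.16 (SE 0.57). Of 10141 genes tested, 1 (0.00986%) passed an FDR of 0.05 and 2.04% had an unadjusted p below 0.05, and these shares carry no reading for genes chosen here.

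The NAc values of Cck after mCRS were spread out rather than shifted as a block. Of 16 mCRS libraries, 11 lay above the CTR median, and 8 lay above every CTR library, at 134 CPM or more. None of the 16 CTR libraries exceeded the mCRS median. The lowest mCRS libraries were number 9 at 9.23 CPM and number 4 at 26.8 CPM, below the CTR median of 62.4 CPM. For Slc30a3, 12 of 16 mCRS libraries lay above the CTR median and 6 above every CTR library, and 5 of these 6 were also among the 8 libraries high in Cck. For Slc17a7, 6 of 16 mCRS libraries lay above the CTR median. In libraries numbered 1 to 8 the mean log2 CPM of Cck was 1.46 higher after mCRS (SE 0.63, n = 8 per group) and in numbers 9 to 16 it was 0.24 higher (SE 0.63). For Slc30a3 these differences were 1.04 (SE 1.24) and 2.36 (SE 1.04).

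**Figure D3:**
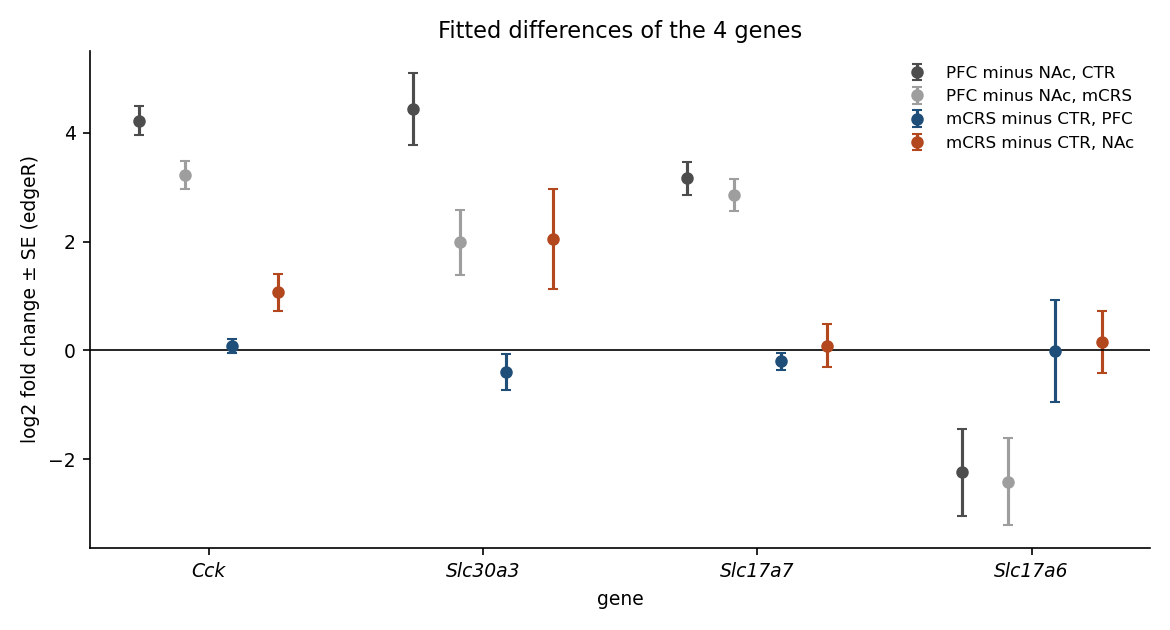
Fitted log2 fold change of each gene in 4 contrasts, with the SE from edgeR as error bars. Positive values are higher in the PFC (gray points) or after mCRS (blue points for the PFC, red points for the NAc). The PFC contrast lies near 0 for Cck at 0.08, and the NAc contrast, from which the genes were chosen, lies at 1.07 for Cck and 2.05 for Slc30a3.

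Whether Cck and Slc30a3 moved with Slc17a7 from library to library was asked within each group, since a difference between groups cannot then enter. Log2 CPM values were correlated in 48 relations, 12 in each group, with two-sided permutation tests of 100000 resamples and adjustment over all 48. In NAc mCRS libraries Cck rose and fell with Slc17a7 (r = 0.78, adjusted p = 0.0115, rho = 0.74, adjusted p = 0.0406, n = 16). Library 9 held 9.23 CPM of Cck and 6.72 CPM of Slc17a7, and library 15 held 351 and 160 CPM. Without libraries 9 and 4, the farthest from the median of Slc17a7, r was 0.50 (permutation p = 0.0703, n = 14), so the relation rested in part on these. It was r = 0.75 (adjusted p = 0.0528) without library 4 alone and r = 0.64 (adjusted p = 0.127) without library 9 alone. Among libraries 1 to 8 it was 0.64 (exact permutation p = 0.0906) and among libraries 9 to 16 it was 0.87 (exact permutation p = 0.00578, adjusted p = 0.0925).

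In NAc CTR libraries no such relation was found between Cck and Slc17a7 (r = -0.09, permutation p = 0.731, adjusted p = 0.878, rho = 0.02, permutation p = 0.944, n = 16). Library 2 held 3.87 CPM of Cck beside 145 CPM of Slc17a7, and without it r was 0.26, with an adjusted p of 0.608. At the other end, library 5 held 67.8 CPM of Cck beside 3.15 CPM of Slc17a7. The difference between the CTR and mCRS correlations was not tested.

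Slc30a3 did not track Slc17a7 past the threshold in either NAc group. The correlation was 0.34 in CTR libraries (permutation p = 0.197, adjusted p = 0.544, rho = 0.33, permutation p = 0.212) and 0.17 in mCRS libraries (permutation p = 0.522, adjusted p = 0.696, rho = 0.31, permutation p = 0.248). In the mCRS group, library 9 held the second highest Slc30a3 level, 73.9 CPM, beside the lowest Slc17a7 level, and without it r was 0.49. Cck and Slc30a3 correlated at 0.48 in CTR libraries (permutation p = 0.0388, adjusted p = 0.233, rho = 0.41, permutation p = 0.114) and at 0.32 in mCRS libraries (permutation p = 0.227, adjusted p = 0.544, rho = 0.41, permutation p = 0.118). The mCRS value ran from 0.21 without library 4 to 0.69 without library 9 (permutation p = 0.0043, adjusted p = 0.103). Slc17a6 and Slc17a7 correlated at -0.26 in CTR (permutation p = 0.332, adjusted p = 0.604, rho = -0.16) and at -0.33 in mCRS libraries (permutation p = 0.206, adjusted p = 0.544, rho = -0.36).

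Cck was also set against the mean log2 CPM of the 21 cortical list genes, a level to which none of the 4 genes contributes. In NAc mCRS libraries r was 0.84 (permutation p = 7e-05, adjusted p = 0.00336, rho = 0.84, adjusted p = 0.00336, n = 16), and without the libraries farthest from the median on the list axis, numbers 6 and 14, it was 0.93. Within libraries 1 to 8 it was 0.88 and within 9 to 16 it was 0.87. In NAc CTR libraries it was 0.30 (permutation p = 0.223, adjusted p = 0.544, rho = 0.55, permutation p = 0.0301, adjusted p = 0.241), and without the farthest libraries, numbers 14 and 15, it was 0.23. Slc17a7 correlated with the list at 0.68 in mCRS libraries (permutation p = 0.00339, adjusted p = 0.0542, rho = 0.69) and at 0.08 in CTR libraries (adjusted p = 0.906, rho = 0.04). Slc30a3 did so at 0.41 in mCRS (adjusted p = 0.445, rho = 0.39) and at 0.55 in CTR libraries (adjusted p = 0.223, rho = 0.50). Its mCRS value ran from 0.28 without library 6 to 0.60 without library 9 (permutation p = 0.0198, adjusted p = 0.159). In all, 2 of the 48 relations had an adjusted p below 0.05, both of Cck in NAc mCRS libraries.

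**Figure D4:**
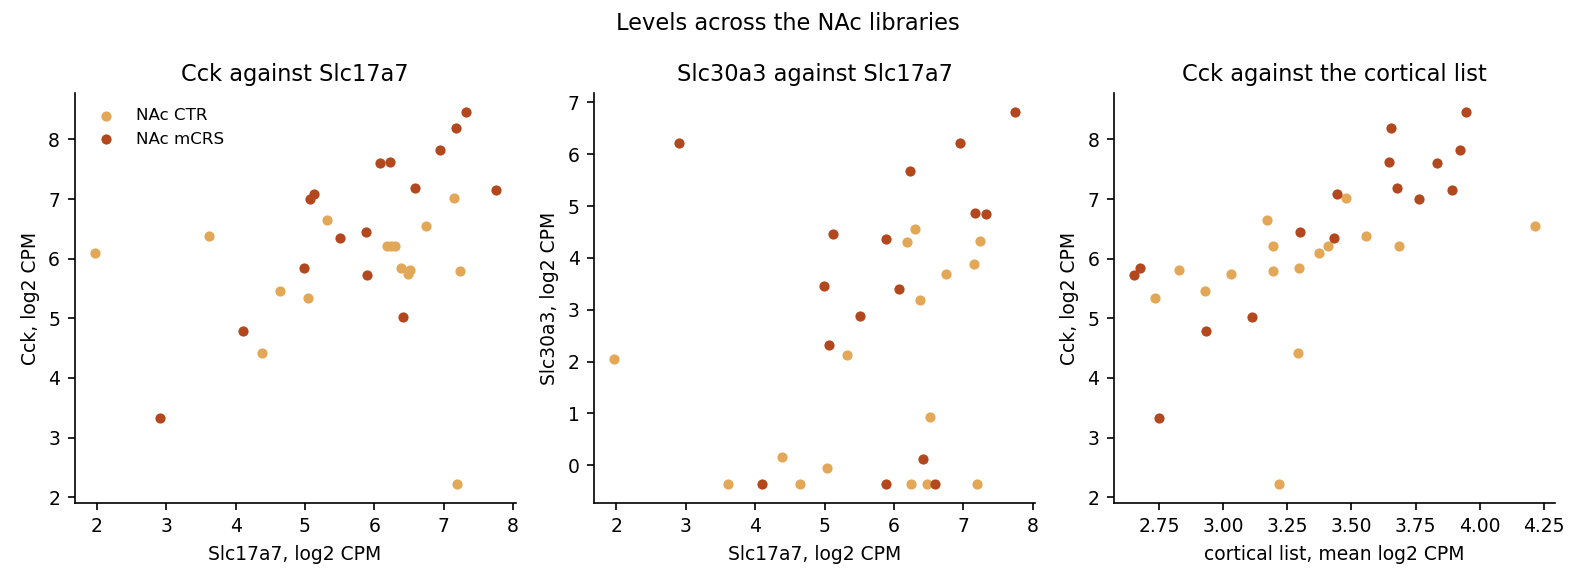
Levels across the 32 NAc libraries in log2 CPM: Cck against Slc17a7, Slc30a3 against Slc17a7, and Cck against the mean log2 CPM of 21 cortical list genes, with CTR and mCRS libraries in separate colors. In mCRS libraries Cck rises along both x axes (r = 0.78 and 0.84), whereas Slc30a3 scatters widely (r = 0.17) and lies at 0 counts in 3 mCRS and 5 CTR libraries.

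The cortical list itself stood at a mean log2 CPM of 3.29 ± 0.36 (SD, n = 16) in NAc CTR and 3.41 ± 0.46 (SD, n = 16) in NAc mCRS libraries, against 6.03 ± 0.39 and 5.64 ± 0.47 (SD, n = 15 each) in the PFC. With this level as a covariate, the fitted NAc difference between mCRS and CTR was 0.54 for Cck (SE 0.31) in place of 1.07, and 2.06 for Slc30a3 (SE 0.91) in place of 2.05. With Slc17a7 as the covariate the differences were 0.83 (SE 0.35) and 2.20 (SE 0.94), and with the mean level of the striatal list 1.07 (SE 0.34) and 2.39 (SE 0.91). For Slc17a7 itself the difference was -0.25 (SE 0.39) at an equal cortical list level. Leaving out mCRS library 9 with the cortical covariate gave 0.67 for Cck and 1.21 for Slc30a3. No test goes with these values, and the part of cortical tissue in the NAc difference was not tested. In CTR mice the 21 list genes stood in the NAc at 1.09% to 163% of their PFC level. Their mean is therefore not a measure of cortical tissue alone.

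In PFC libraries the levels of the genes were not tied together past the threshold. Cck and Slc17a7 correlated at 0.004 in CTR (permutation p = 0.989, rho = -0.10) and at -0.15 in mCRS libraries (permutation p = 0.596, rho = -0.12). Slc30a3 correlated with Slc17a7 at 0.67 in CTR libraries (permutation p = 0.00682, adjusted p = 0.0818, rho = 0.66), with r = 0.47 without libraries 3 and 14, and at -0.02 in mCRS libraries (permutation p = 0.935). None of the 24 relations in the PFC had an adjusted p below 0.05.

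Over the 32 NAc libraries, with the mean of each treatment subtracted, the Spearman correlation of Cck was 0.44 with Slc30a3 and 0.40 with Slc17a7, which placed them 112th and 231st among 11024 other genes. The genes most like Cck were Smg6 (0.66), Fam207a (0.61), Prrt1 (0.61), Fbh1 (0.60) and Map3k7 (0.59). For Slc30a3 they were Fam168b (0.66), Abr (0.64), Pcp4 (0.61), Lmo3 (0.60) and Fiz1 (0.60), and for Slc17a7 they were Serpini1 (0.63), Tmem151b (0.62), Aldoa (0.61), Mrpl19 (0.60) and Chd8 (0.59). These are the highest of 11024 values each and share libraries and depth. With the 17 striatal genes, the median correlation was -0.35 for Slc17a6 (0 of 17 above 0), 0.22 for Slc30a3 (16 of 17), 0.14 for Slc17a7 (15 of 17) and 0.02 for Cck (10 of 17). With the 21 cortical list genes, the median was -0.08 for Slc17a6 (9 of 21 above 0), 0.16 for Slc30a3 (15 of 21), 0.11 for Slc17a7 (14 of 21) and 0.11 for Cck (18 of 21). Over all genes the medians, in the same order, were 0.05, -0.02, -0.07 and 0.01. Within the groups, Slc17a6 and the mean striatal level correlated at -0.47 in CTR (adjusted p = 0.282, rho = -0.17) and at -0.42 in mCRS libraries (adjusted p = 0.445, rho = -0.42), both short of the threshold, and the CTR value was -0.09 without library 7.

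The genes around cholecystokinin and synaptic zinc were counted in the same fits. Of 10 counted genes for the processing, storage and reception of cholecystokinin, 4 were called higher and 1 lower in the PFC of CTR mice, and 3 higher and 1 lower in mCRS mice. Over all genes 3.56% were higher and 1.89% lower in CTR mice, and 3.86% and 2.62% in mCRS mice. In CTR mice Cckbr, the receptor of cholecystokinin that prevails in the brain, was higher in the PFC by 2.87 (SE 0.61, FDR 0.000496). Pcsk2, a convertase that cleaves prohormones, was higher there by 1.01 (SE 0.19, FDR 4e-05). Scg2, a secretogranin of dense-core vesicles, was lower in the PFC of CTR mice by a log2 fold change of -1.47 (SE 0.19, FDR 2.6e-09). In mCRS mice Scg2 stood at -1.06 and Pcsk2 at 1.01, and Cckbr was not among the 3 called genes of largest change. After mCRS 0 of the 10 passed an FDR of 0.05 in edgeR in either region, and 0 had an unadjusted p below 0.05. In the NAc Cckbr stood at 1.35 (SE 0.79, FDR 1.0).

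Of 21 counted zinc transporters, metallothioneins and partners, 1 was called higher in the PFC in either treatment and 0 lower, near the share over all genes (5.44% in CTR and 6.49% in mCRS mice). It was Slc39a10, a transporter that brings zinc into cells, at 1.27 in CTR (SE 0.33, FDR 0.00716) and 1.55 in mCRS mice (SE 0.33, FDR 0.000537). The median of the list was -0.18 in CTR mice, against -0.04 over all genes. After mCRS 0 of 18 tested in the PFC and 0 of 21 in the NAc had an unadjusted p below 0.05 or passed an FDR of 0.05 in edgeR. Among 16 tested genes of glutamate and glutamine handling, 2 were higher and 1 lower in the PFC of CTR mice. Slc25a22, a mitochondrial glutamate carrier, was higher by 0.90 (SE 0.21, FDR 0.00221), and Slc38a1, a glutamine transporter, was lower at -0.67 (SE 0.21, FDR 0.0437). After mCRS 0 of 14 tested in the PFC and 0 of 15 in the NAc passed an FDR of 0.05 in edgeR. An unadjusted p below 0.05 was met by 1 in the PFC and 2 in the NAc, all lower, against 3.5% and 2.04% of all genes tested. The PFC gene was also 1 of the 2 in the NAc, and it is on the astrocyte list too.

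Markers of other cell types were counted for the sources a sample could hold. In CTR mice 15 of 17 striatal projection neuron genes were called lower in the PFC, as were 5 of 10 oligodendrocyte genes and 1 of 10 astrocyte genes (Aldoc, -0.40, SE 0.12, FDR 0.0227). Of 14 genes on the GABAergic interneuron list, which also holds genes of GABAergic neurons in general, 3 were higher and 3 lower. Over all genes 3.56% were called higher and 1.89% lower in the PFC of CTR mice. None of 8 genes of thalamic and subcortical VGLUT2 neurons, 6 of claustrum and endopiriform neurons, 9 of microglia, 7 of endothelial cells and 3 of the choroid plexus passed an FDR of 0.05 in edgeR in CTR mice, with 3, 3, 1, 0 and 2 at an unadjusted p below 0.05, which 13.3% of all genes met. In mCRS mice 17 of 17 striatal, 7 of 10 oligodendrocyte and 1 of 10 astrocyte genes were called lower in the PFC. So were 2 of 3 choroid plexus genes and 1 of 8 VGLUT2 neuron genes, against 2.62% of all genes. Ttr, 1 of these choroid plexus genes, stood at -6.44 in mCRS mice but at -0.32 (FDR 0.967) in CTR mice. NAc mCRS library 10, with its high choroid plexus level, was part of the fit. The choroid plexus calls between regions were not recomputed without it. Of the genes on the interneuron list 3 were higher and 3 lower in mCRS mice, and no claustrum, microglia or endothelial gene was called. The VGLUT2 neuron gene was Tcf7l2, a thalamic transcription factor, at a log2 fold change of -2.70 (SE 0.83, FDR 0.029). The list was mixed, since 3 of the 8 genes in CTR and 2 in mCRS mice had values above 0, higher in the PFC. The summed level of the 8 VGLUT2 neuron genes other than Slc17a6 was 112 to 537 CPM in NAc CTR and 124 to 518 CPM in NAc mCRS libraries. In the PFC it was 109 to 363 CPM in CTR and 56.7 to 303 CPM in mCRS libraries. After mCRS, Ttr of the choroid plexus list was the 1 marker called, in the NAc, at 5.38 (SE 1.05, FDR 0.0339), and that value rested on 1 library. Without NAc mCRS library 10 it was -0.46 (SE 0.73, FDR 1.0), and 0 genes were called, and leaving out 1 NAc CTR library gave FDRs of 0.00151 to 0.0768. Of the endothelial list in the NAc, 1 of 7 genes lay above 0 after mCRS, with a median of -0.55 against -0.01 over all genes tested, and 2 (Itm2a, -0.92, and Cldn5, -0.87) had an unadjusted p below 0.05 but an FDR of 1.0. The summed endothelial level was 178 to 602 CPM in NAc CTR and 123 to 391 CPM in NAc mCRS libraries. Cnr1, a cannabinoid receptor on the interneuron list, stood at 0.63 (SE 0.24, unadjusted edgeR p = 0.00996, FDR 1.0). Also at an unadjusted p below 0.05 were 1 oligodendrocyte gene, higher, and 1 astrocyte gene, lower, against 2.04% of all genes tested. That astrocyte gene is the 1 of the glutamate list already counted in both regions. The part of these cell types in the NAc differences of Cck and Slc30a3 was not tested. Without NAc mCRS library 10, the NAc differences were 0.96 for Cck and 2.05 for Slc30a3, and without NAc CTR library 7 they were 1.05 and 1.97.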

How the data were processed

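Counts per gene were used as deposited. The authors prepared BRB-seq libraries with barcoded oligo-dT primers, mapped the reads to GRCm38 (mm10) with STAR and counted them with HTSeq (0.9.1 in the submitters' processing notes). They removed PFC samples of poor sequencing quality, and no collapsing of PCR copies is stated, so intervals cover counting error only. The table holds 11121 genes and 62 libraries, with 945286 to 4857359 counts each.

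The genes and all lists were chosen with earlier results of these data known. The region contrasts were fitted over all 62 libraries and the stress contrasts within a region, with the quasi-likelihood test of edgeR 4.0.16 (limma 3.58.1, R 4.3.3) after TMM normalization and its filter by group. Calls were made at a Benjamini-Hochberg FDR below 0.05. Log2 CPM used a prior count of 2. Fits of mCRS against CTR with a covariate and the values of the 4 genes in the NAc contrast carry no test. Scripts were tested on simulated data. P values measure the spread between libraries.

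Named were the 4 genes, the 5 genes most correlated with each of 3 of them over NAc libraries, and of each list up to 3 called genes of largest change or, with none called, 3 of smallest p, of which some are given. Tle4 was named after its value was seen. The values of 1 listed gene are not reported here. Alternatives were DESeq2 1.42.0, RLE and upper-quartile normalization, no filter, at least 10 counts in 50% of libraries, a replicate block, the percent of genes with a count as a covariate, and fits without each library in turn. For correlations they were CPM without TMM factors and a prior count of 0.5. The split of libraries at numbers 8 and 9 and the adjustment of correlations for genes detected were chosen after seeing the data. Behavior, respiration, metabolites and other studies' data were not analysed here.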

Additional observations from a re-analysis of the deposited data

How the results depend on the processing

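Leaving out 1 library at a time kept the direction and the side of the threshold of the region differences of Cck (4.15 to 4.33 in CTR, 3.16 to 3.40 in mCRS mice), Slc30a3 (4.34 to 4.70 and 1.89 to 2.32) and Slc17a7, as did every other setting run on them. Of all values recomputed without 1 library, 1373 were classed as unchanged. For values with a test this meant the same direction and side of the threshold. For gene counts and for the NAc differences, which carry no test, it meant staying within a set margin, whatever the sign. Among values with a test 44 lost and 5 gained a call and 22 changed sign, and 22 other values moved beyond their margin. The NAc difference lay between 0.91 and 1.17 for Cck and between 1.73 and 2.32 for Slc30a3. For Slc17a7 it ran from -0.09 to 0.20, so its sign depended on the library left out.

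Slc17a6 was the exception. Its PFC to NAc difference ranged from -3.20 to -1.89 in CTR and from -2.66 to -2.27 in mCRS mice without 1 library. In CTR mice it was called by DESeq2 at -2.33 and without PFC CTR library 5. In mCRS mice its call was lost with at least 10 counts in 50% of libraries (-2.38), with the share of detected genes as covariate (-1.92) and with the replicate number as a block (-2.24). Its PFC stress difference ranged from -0.28 to 0.96 without 1 library and was 0.11 with the detection covariate.

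Same-numbered libraries did not deviate together (correlations of -0.0304 to 0.0532 over 15 or 16 pairs per contrast), so the numbers were not taken as pairs. With the replicate block, the stress difference of Slc17a6 in the PFC was 1.83, and the block changed no other call of the 4 genes than that in mCRS mice named above.

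Stress calls were few under every setting. In the PFC, 1 gene was called with no filter, 1 with the replicate block, and 0 to 2 without 1 library. An unadjusted p below 0.05 was met there by 184 genes with the detection covariate and by 576 in DESeq2. In the NAc, 2 genes were called with no filter, 0 with the replicate block, 0 with the detection covariate, 0 with the split of numbers as a covariate, 0 in DESeq2 (393 at an unadjusted p below 0.05), and 0 or 1 without 1 library.

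Among correlations, 1 to 3 passed adjustment without 1 library, and 0 passed within libraries 1 to 8 and 0 within those from 9. Cck with Slc17a7 in NAc mCRS ranged from 0.64 to 0.86 without 1 library and was 0.64 and 0.87 within these sets. In NAc CTR it ranged from -0.19 to 0.26, was 0.31 when both genes were adjusted for detection and 0.0196 within libraries from 9. Slc30a3 with Slc17a7 in NAc mCRS was -0.25 within libraries from 9. Slc17a7 with the cortical list in NAc CTR was -0.0074 with a prior count of 0.5, -0.10 within libraries 1 to 8, and -0.0794 to 0.17 without 1 library. In PFC mCRS, Slc30a3 with Slc17a7 was 0.0799 by library totals, 0.17 and 0.0781 within the sets, and -0.15 to 0.14 without 1 library. In PFC CTR, Cck with Slc17a7 was -0.67 within libraries from 9 and -0.17 to 0.23 without 1 library. The split of the library numbers and the adjustment for detection were chosen after seeing the data, and the causes of these changes were not tested. Slc30a3 was at 0 counts in 8 NAc libraries and Slc17a6 in 6 PFC libraries, where 3 counts set the limit.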
